A study of Mus musculus with 27 samples.

Results

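The comparison covers the 9 Veh livers against the 9 Con livers, 18 of the 27 mouse livers of the series, chosen by their sample titles, Veh1 to Veh9 and Con1 to Con9. The other 9 livers carry the title Dex and enter here by sharing the estimate of the spread between mice. The labels do not spell out Con, Veh or Dex, and give no sex, strain, age, dose or time, so the names are used as written. Each array held total RNA of the liver of a single mouse, and every mouse of a group had its own array. The series states no purpose for the comparison beyond its title, and the question put here is how the livers called Veh differed from those called Con. All 12422 probe sets that are not array controls were considered, and 6784 of them (54.6%), standing for 5200 genes with a single symbol, were bright enough to test. The other 5638 probe sets were not tested.

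The liver makes most plasma proteins, burns and builds fat, and clears drugs, steroids and bile acids with cytochrome P450 enzymes and conjugating enzymes. Many of those genes differ between male and female mice. The pituitary releases growth hormone in pulses in males and more steadily in females, and hepatocytes read that pattern through the growth hormone receptor and the transcription factor STAT5B. Male mouse liver is therefore rich in Cyp7b1 and Hsd3b5, and female liver in Cyp2b9 and several Cyp2c genes. A second set of P450 genes, the Cyp4a family, hydroxylates fatty acids and is switched on by the fatty acid receptor PPARA.

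In this comparison 262 of the 6784 probe sets changed (3.86%, adjusted p under 0.05 in limma), 81 higher in Veh (1.19%) and 181 lower (2.67%). An unadjusted p under 0.05 was reached by 1598 probe sets (23.6%). Taking the brightest tested probe set for each gene, 185 of 5200 genes changed (3.56%), 63 higher (1.21%) and 122 lower (2.35%). Of the 185 genes, 153 had a mean log2 intensity of at least 5 in both groups, and the other 32 (5 higher, 27 lower) were dimmer in at least a single group, so the sizes of their changes depend on weak signals. A change of more than 1 on the log2 scale was seen in 49 called genes, 10 higher and 39 lower. Where a called gene had further tested probe sets (47 in all), 41 pointed the same way and 6 the other way. Of the 41, 7 passed the threshold themselves, and of the 6, 1 did.

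The count of calls moved with single mice. Leaving out Veh 5, Veh 2, Veh 4 or Veh 1 gave 85, 93, 122 and 167 called probe sets, and leaving out Veh 9 gave 586. Dropping Con 3, Con 7 or Con 1 gave 106, 112 and 118, and dropping Con 8, Con 6, Con 9 or Con 4 gave 145, 147, 155 and 174. Veh livers were also less alike than Con livers. The median SD of a probe set within a group was 0.469 in Veh and 0.375 in Con on the log2 scale, and 4617 of the tested probe sets (68.1%) had the larger SD in Veh.

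Dim and bright genes leaned in opposite directions. The median difference, Veh minus Con, was -0.19 over all tested probe sets. It was -0.32 over the 2235 genes with a mean log2 intensity under 6, -0.19 over the 1899 genes from 6 to 8, 0.05 over the 754 genes from 8 to 10 and 0.24 over the 312 genes at 10 and over. Of the genes under 6, 4 were called higher (0.179%) and 48 lower (2.15%). From 6 to 8 the counts were 4 higher (0.211%) and 66 lower (3.48%). At 10 and over, 25 were called higher (8.01%) and 1 lower (0.321%), and from 8 to 10 the counts were 30 higher (3.98%) and 7 lower (0.928%). Over all genes 1.21% were called higher and 2.35% lower. With quantile normalization, which forces each array to the same distribution, the medians of the bands were -0.05, 0.00, 0.02 and 0.02, and 86 probe sets were called, 44 higher and 42 lower (51.2% higher against 30.9%). With each array centred on its median, 229 probe sets were called, 183 higher and 46 lower (79.9% higher). Of the 262 calls 63 held with quantile normalization and 127 with centring. Changes below are given as fitted, and each lies 0.19 higher when read relative to the median probe set.

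**Figure D1:**
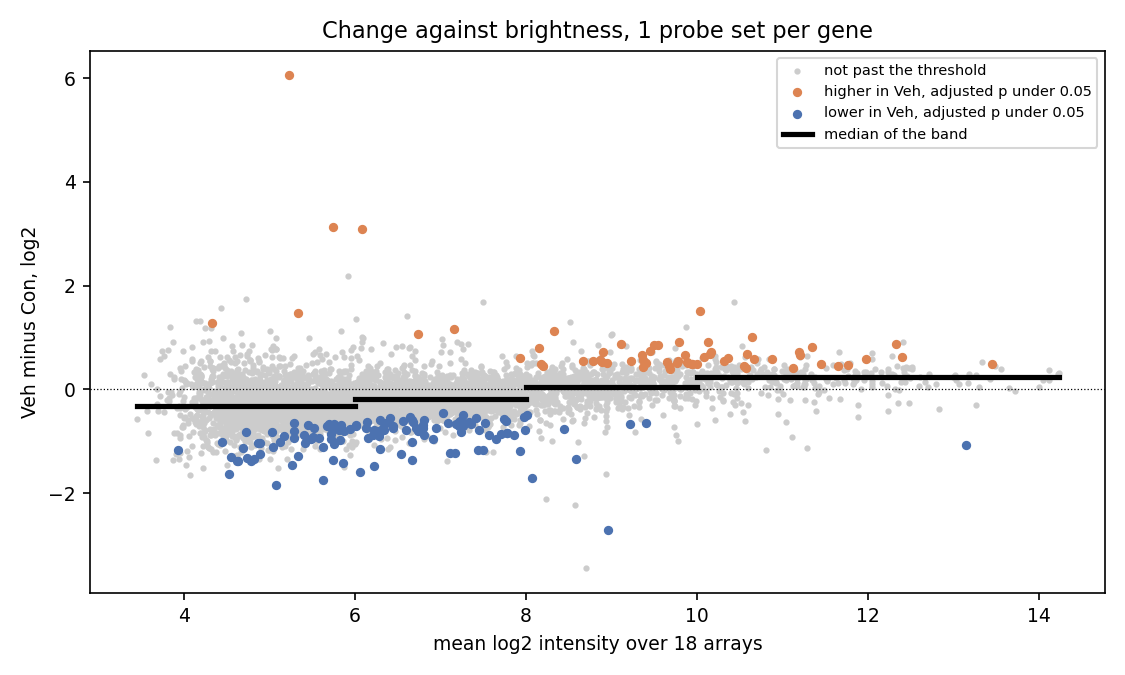
Difference Veh minus Con on the log2 scale (vertical axis) against the mean log2 intensity over the 18 arrays (horizontal axis), 1 point per gene, with the genes past the threshold in colour and the median of each brightness band as a black line. The band medians climb from -0.32 under 6 to 0.24 at 10 and over, and in the brightest band 25 called genes are higher in Veh and 1 is lower.

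The arrays of both groups had like trimmed means (98.5 ± 0.48 in Con, 98.4 ± 0.326 in Veh, SD, n = 9 each, two-sided exact permutation p adjusted over 5 measures = 0.90). The beta-actin control probe sets give a 3' to 5' log2 ratio that grows with shortened RNA. It was 0.947 ± 0.243 in Con and 1.27 ± 0.318 in Veh (SD, n = 9 each, exact permutation adjusted p = 0.0884, unadjusted 0.0253). The array median intensity was 28.1 ± 3.79 in Con and 23.4 ± 4.71 in Veh (exact permutation adjusted p = 0.0884). Neither passed the threshold after adjustment. Without 1 array, the exact permutation adjusted p was 0.0343 to 0.166 for the beta-actin ratio and 0.0559 to 0.166 for the median. Adding the beta-actin ratio to the fit as a covariate left 33 calls, and adding the array median, an alternative chosen after seeing the data, left 21. Beyond these fits their part in single results was not tested.

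Among genes that are higher in male mouse liver, 2 fell in Veh. Of the 41 genes on that list, 20 were on the array and 19 were tested, and 18 of these had a negative difference (median -0.49, against -0.18 over all genes). Relative to the median probe set 15 were lower and 4 higher. Cyp7b1, the oxysterol 7-alpha-hydroxylase, and Gstp1, a glutathione transferase, passed the test as lower (2 of 19, 10.5%, against 2.35% of all genes), and 0 members passed as higher. With quantile normalization 19 of 19 were lower (median -0.56) and the same 2 were called. Several large differences varied between mice and did not pass. In bulk RNA, fewer cells of a type and less RNA per cell cannot be told apart, here and in every result below.

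Cyp7b1 lay at 9.57, 10.13 and 10.97 (lowest, median and highest log2 intensity) in Con and at 5.43, 7.83 and 9.74 in Veh. Veh 2, Veh 4, Veh 5 and Veh 7 held the lowest values and Veh 1, at 9.74, lay inside the Con range. The fall was 2.71 ± 0.58 on the log2 scale (SE, 9 mice a group, limma adjusted p = 0.00925), and a second probe set of Cyp7b1 fell by 3.09 ± 0.52 (0.00188). The call held in 27 of 27 sets without 1 array (leave-one-out sets below) and was lost with the beta-actin ratio (0.0751) or the array median (0.0814) as a covariate. The 27 sets include 9 that left out a Dex array, which enters only the estimate of the spread. Of 84 called genes named in this report, 81 to 84 held without a Dex array. Without a Con or Veh array 44 to 84 held.

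Hsd3b5, a hydroxysteroid dehydrogenase of male liver, showed the widest spread. Its log2 intensity was 10.07, 10.33 and 10.83 (lowest, median, highest) in Con and 2.38, 9.27 and 9.94 in Veh. All 9 Veh values lay below all 9 Con values, and 3 Veh mice (Veh 7 at 2.38, Veh 2 at 2.63 and Veh 4 at 3.12) were close to the floor, with Veh 5 at 6.12 and the other 5 between 9.27 and 9.94. The difference of -3.45 ± 1.11 did not pass the test (adjusted p = 0.0694), with an SD of 3.41 in Veh and 0.26 in Con. Its relative Hsd3b2 was at 8.30, 9.36 and 9.75 in Con and at 4.03, 8.37 and 9.01 in Veh, and the groups overlapped. That difference, -2.11 ± 0.63, did not pass either (0.053). Hsd3b6 of the same family, whose levels were 5.28, 6.87 and 7.53 in Con and 3.15, 5.48 and 6.81 in Veh, fell by 1.60 ± 0.43 (0.0347, held in 17 of 27 leave-one-out sets). Hsd3b genes are close copies, so signal may be shared between their probe sets.

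Egfr, the epidermal growth factor receptor, which male liver carries at the higher level, was lowest in the same 4 mice. It was at 9.30, 9.76 and 10 in Con and at 3.04, 8.86 and 9.52 in Veh. Veh 2 was lowest at 3.04, and Veh 5, Veh 4 and Veh 7 came next at 5.90, 6.22 and 6.38. Its 3 tested probe sets differed by -2.23, -2.17 and -1.59 (adjusted p = 0.0701, 0.0619 and 0.0709). Gstp1 was very bright, at 13.24, 13.76 and 14.19 in Con and 11.49, 12.52 and 14.14 in Veh, and it fell by 1.08 ± 0.30 (0.0411, held in 13 of 27 leave-one-out sets). Its probe set may also detect the near-identical Gstp2. Male-biased genes outside this pattern included the urinary protein gene Mup3 (difference -0.03 ± 0.19, adjusted p = 0.93), the uric acid oxidase Uox (0.00 ± 0.15, 0.998) and Cyp2d9 (-0.12 ± 0.20, 0.744).

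**Figure D2:**
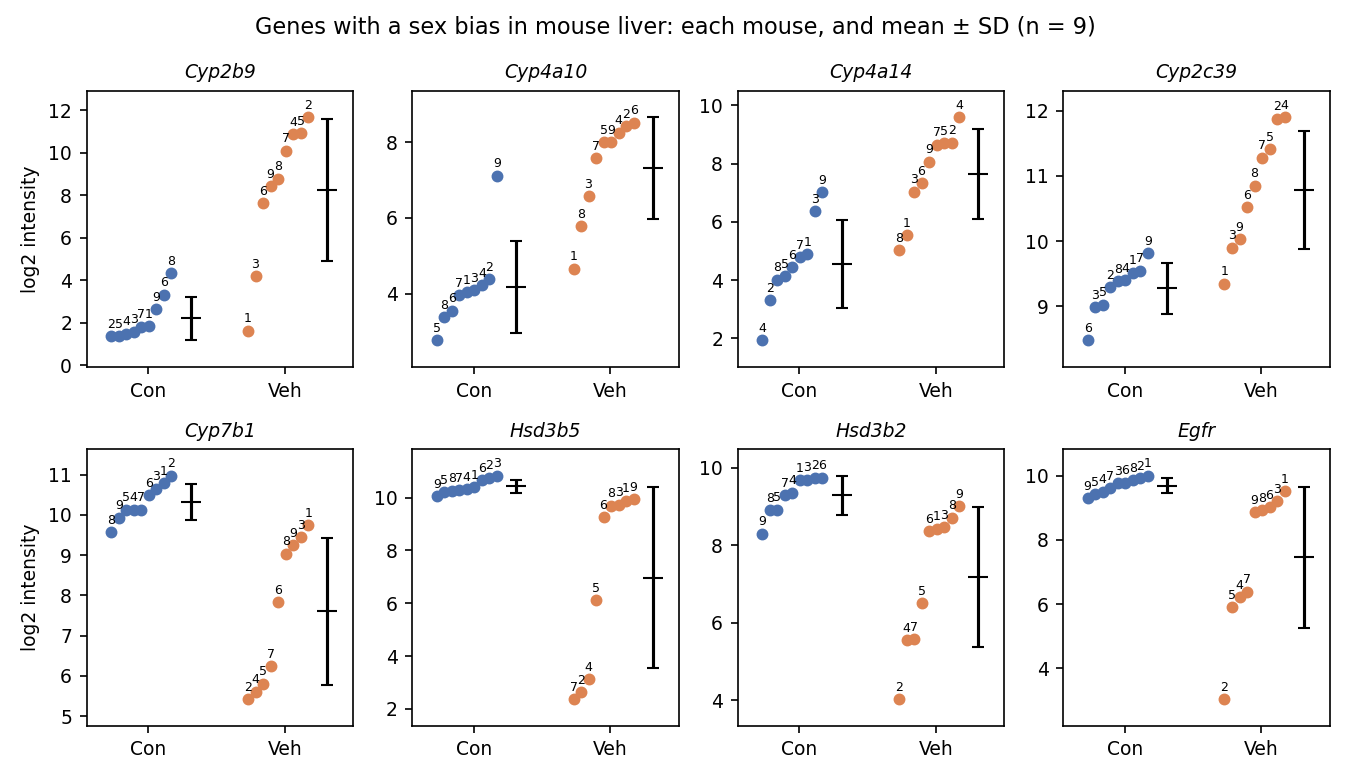
Log2 intensity of 8 genes with a known sex bias in mouse liver, 1 point per mouse labelled with its number, in the 9 Con (blue) and 9 Veh (orange) livers, with the mean and SD beside each group. Veh 2, 4, 5 and 7 sit at the bottom for Cyp7b1, Hsd3b5, Hsd3b2 and Egfr and above 10 for Cyp2b9, and Veh 1 sits near the Con values for most of these genes.

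Among genes that are higher in female mouse liver, 4 P450 genes rose in Veh, Cyp2b9, Cyp4a10, Cyp4a14 and Cyp2c39. Of the 51 listed genes, 31 were on the array and 17 were tested, with 0 passing as lower. Over all genes 1.21% passed as higher, but the count for this list cannot be read against that share. Cyp2b9 was above the array median in 0 Con, 7 Veh and 9 Dex arrays, Cyp4a10 in 1, 9 and 9 and Cyp4a14 in 2, 9 and 9, so these 3 met the filter through the groups in which they were high. Cyp2c39 was above it in all 27 arrays. The differences of the 17 genes had a median of 0.43, a description of those that met the filter. With quantile normalization the median was 0.58, the same 4 passed as higher together with the phenol sulfotransferase Sult1a1, and 1 member passed as lower. Sult1a1 did not pass in the fit without it (0.73 ± 0.22, adjusted p = 0.0591).

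Cyp2b9, a P450 of female liver that is also inducible by drugs, was at 1.38, 1.81 and 4.34 (lowest, median, highest) in Con, at or near the floor of 1.38. In Veh it was at 1.63, 8.79 and 11.68. Veh 2, Veh 5, Veh 4 and Veh 7 were highest (11.68, 10.94, 10.88 and 10.11), Veh 1 stayed at 1.63 and Veh 3 at 4.19, so the groups overlapped through these 2 mice. The rise was 6.06 ± 1.04 as fitted (0.00196), and its size depends on the floor. The call held in all 13 other settings in which the gene could be tested and in 27 of 27 leave-one-out sets.

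Cyp2c39, a retinoid-metabolising P450, rose from a bright Con level. Its values were 8.48, 9.39 and 9.82 in Con and 9.35, 10.85 and 11.90 in Veh, with Veh 4 and Veh 2 highest and Veh 1 inside the Con range. The rise was 1.52 ± 0.33 (0.00968), held in 27 of 27 leave-one-out sets and lost with the beta-actin ratio (0.052) or the array median (0.0955) as a covariate. Its close copy Cyp2c38 rose by 1.01 ± 0.21 (0.00781), from 10.14 ± 0.35 to 11.15 ± 0.46 (SD, n = 9 each), and the probe sets of such copies may share signal. Female-biased genes that did not pass included Cyp2b10 (1.36 ± 0.69, adjusted p = 0.23), the steroid hydroxylase Cyp17a1 (0.38 ± 0.42, 0.59) and the cytokine receptor Lifr, whose difference was negative (-0.99 ± 0.29, 0.053).

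The other 14 female-biased genes on the array were too dim in most arrays to be tested. Over their 17 probe sets the Veh mean was the higher in 14 and the lower in 3, those of Cyp3a16, Cux2 and Fgfr1, at levels where most signals are weak. Some of the 14 differences were tiny, such as Ntrk2 (1.54 in Con, 1.56 in Veh) and Spink1 (1.98 and 2.02). The same count over all untested probe sets was not made, so these numbers have no background. The 4 genes whose levels follow were picked after their values were seen, for their high Veh levels. Cyp2b13, next of kin to Cyp2b9, had a mean log2 intensity of 2.01 in Con (highest 3.51) and 5.05 in Veh (highest 9.10). The sulfotransferase Sult2a2 had 2.25 in Con (highest 3.94) and 4.13 in Veh (highest 12.01). Sult3a1, another sulfotransferase, had 1.43 (highest 1.85) and 3.55 (highest 9.29). The peroxisomal hydroxyacid oxidase Hao2 had 1.64 (highest 3.20) and 4.05 (highest 7.55). Each reached in at least 1 Veh mouse a level that no Con mouse had, and no test was made.

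**Figure D3:**
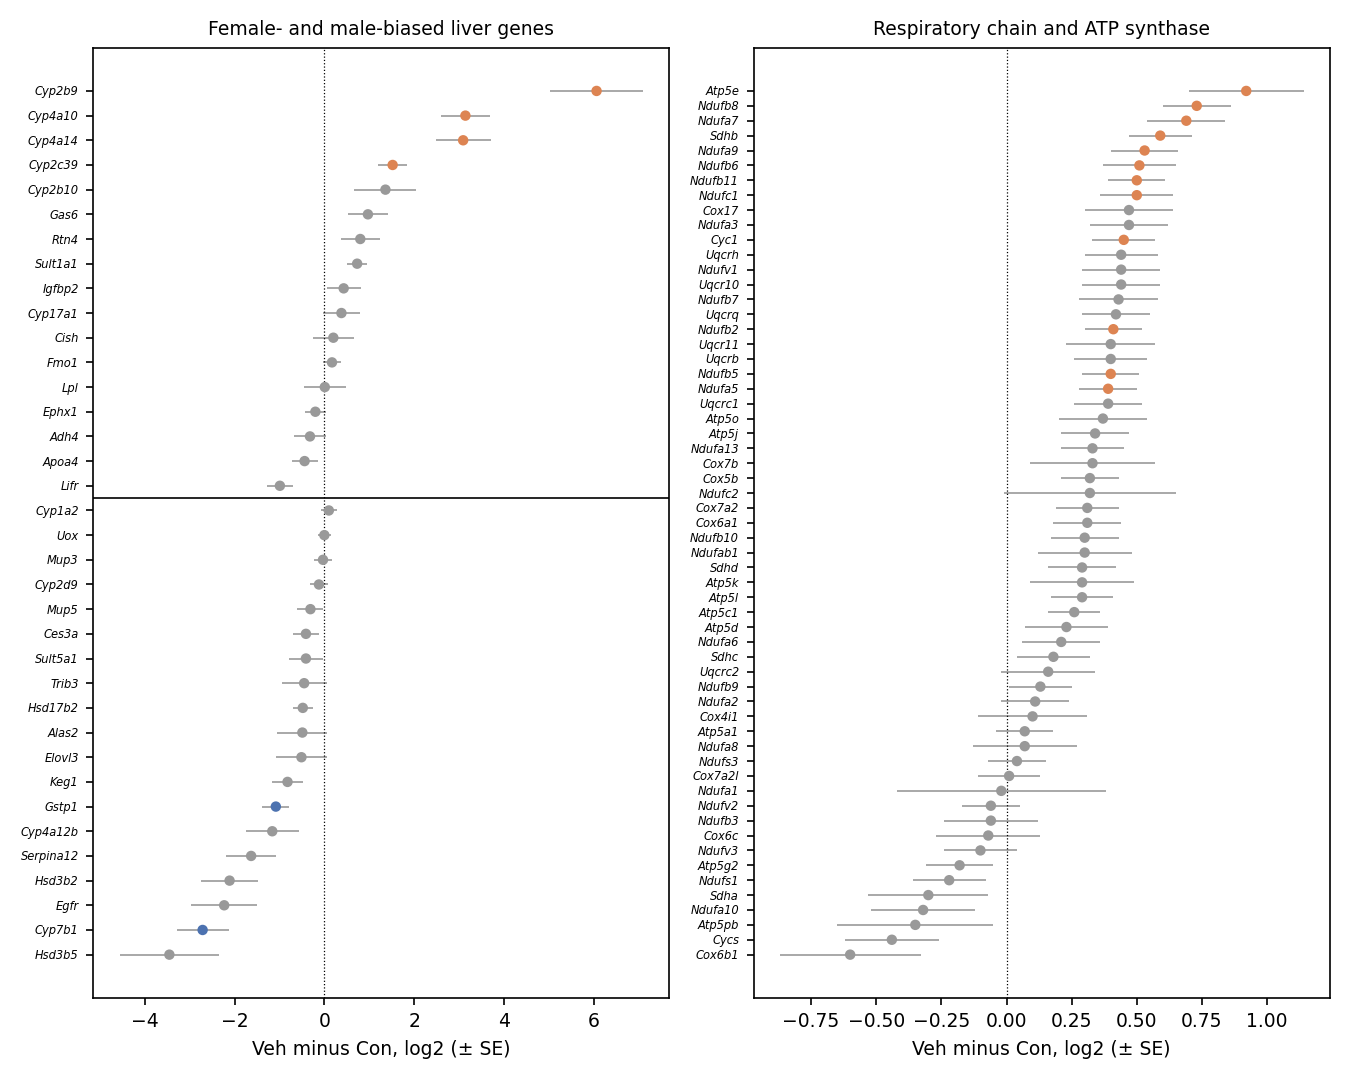
Difference Veh minus Con on the log2 scale with its standard error for the tested female-biased (above the line) and male-biased genes (left) and for the tested subunits of the respiratory chain and ATP synthase (right), with genes past the threshold in orange (higher) or blue (lower). Of the 19 male-biased genes 18 lie left of 0 or at it, and 12 respiratory chain genes are called, each higher in Veh.

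The sequences before the start sites of 4 of these genes, the female-biased Cyp2b9 and Cyp2c39 and the male-biased Hsd3b5 and Hsd3b2, are given as examples from each list. They are the 250 bases upstream of the RefSeq start (GRCm38.p6), 5' to 3' on the strand of the gene, with capitals for any match on either strand to the STAT5 motif TTCNNNGAA, the FOXA motif TGTTTAC or the nuclear receptor half-site AGGTCA. RefSeq lists Cyp2c39 with 2 starts. The table used here held no entry for Cyp4a10, Cyp4a14 and Cyp7b1.
Cyp2b9 (chr7:26173159-26173408, plus strand): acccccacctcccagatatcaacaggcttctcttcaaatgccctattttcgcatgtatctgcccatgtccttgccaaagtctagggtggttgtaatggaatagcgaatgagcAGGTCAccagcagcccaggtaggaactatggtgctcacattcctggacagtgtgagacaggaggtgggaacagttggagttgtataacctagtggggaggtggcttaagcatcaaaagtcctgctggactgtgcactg
Cyp2c39 (chr19:39347096-39347345, plus strand): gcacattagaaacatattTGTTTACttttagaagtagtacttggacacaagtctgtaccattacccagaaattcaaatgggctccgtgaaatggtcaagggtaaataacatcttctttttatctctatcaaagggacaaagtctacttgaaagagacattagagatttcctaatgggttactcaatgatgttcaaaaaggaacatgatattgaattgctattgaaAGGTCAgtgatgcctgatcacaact
Cyp2c39 (chr19:39510572-39510821, plus strand): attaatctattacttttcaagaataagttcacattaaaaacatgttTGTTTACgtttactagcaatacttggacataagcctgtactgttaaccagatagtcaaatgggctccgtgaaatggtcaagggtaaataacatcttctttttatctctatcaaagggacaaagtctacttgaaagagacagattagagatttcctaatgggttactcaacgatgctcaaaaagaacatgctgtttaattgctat
Hsd3b5 (chr3:98645535-98645784, minus strand): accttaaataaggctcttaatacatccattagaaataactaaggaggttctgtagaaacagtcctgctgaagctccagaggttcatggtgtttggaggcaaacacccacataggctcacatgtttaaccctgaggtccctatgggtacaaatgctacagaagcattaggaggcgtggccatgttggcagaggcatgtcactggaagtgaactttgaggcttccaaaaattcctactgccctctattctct
Hsd3b2 (chr3:98724544-98724793, minus strand): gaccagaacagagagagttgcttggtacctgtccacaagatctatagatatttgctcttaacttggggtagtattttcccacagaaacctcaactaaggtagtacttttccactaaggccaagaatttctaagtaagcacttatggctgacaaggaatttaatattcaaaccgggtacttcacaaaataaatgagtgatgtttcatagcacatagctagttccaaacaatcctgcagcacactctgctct

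The STAT5 motif was found in none of these 5 windows, against 7.02% of the 32851 promoter windows of the same length. The FOXA motif stood in both Cyp2c39 windows (3.17% of all windows hold it) and the half-site in the Cyp2b9 window and the first Cyp2c39 window (14% of all). The windows of Hsd3b5 and Hsd3b2 held none of the 3. A match describes these letters and is no evidence of binding, and a window without a match says nothing about the factor.

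Over the 18 arrays the genes with the pattern most like Cyp7b1, among genes with group means of at least 5, were Hsd3b2 (Pearson r = 0.94), Cyp2c39 (-0.94), Hsd3b5 (0.93), the ribosome assembly GTPase gene Gtpbp4 (0.92) and Egfr (0.92). Within the 9 Veh arrays alone the same values were 0.92, -0.93, 0.92, 0.90 and 0.90. Those most like Cyp2b9 were Cyp7b1 (-0.92), Cyp2c39 (0.92), Gstp1 (-0.89), Gtpbp4 (-0.88) and the thymosin gene Tmsb4x (0.88). These genes were picked as the most alike, which fixes a high correlation, and the 18 arrays also share the group difference, so the values carry no test.

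The array measures of these 4 mice were not all alike. The beta-actin 3' to 5' log2 ratio was 1.92 in Veh 2, the highest of the 18 arrays, but 1.10 in Veh 4, 1.14 in Veh 7 and 0.943 in Veh 5, the lowest of the Veh arrays. Veh 3 had the next highest ratio, 1.67. The array medians of Veh 2 and Veh 5 were the lowest of the 18 (17.6 and 18.3), and those of Veh 4 and Veh 7 were 22.4 and 24.4. The part of these measures in the pattern of the 4 mice was not tested. The probe set of Xist, the RNA that coats the inactive X chromosome in females, was at most 3.55 in Con and 3.83 in Veh, and at the floor in 3 and 5 arrays. Eif2s3y, a Y-linked gene whose probe set may detect related sequences, was at 4.98 to 6.06 in Con and 4.68 to 6.15 in Veh. The Y-linked Kdm5d and Uty were dim in both groups (at most 3.41 and 3.35, and at most 4.5 and 4.31). No array of known female RNA was there to show how bright these probe sets can be.

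Signals of growth hormone action outside the P450 genes gave 0 calls among 19 tested members. An unadjusted p under 0.05 was reached by 6 of the 19, and by 23% of all genes. Socs2, a feedback inhibitor that growth hormone induces, was at 5.5, 6.43 and 7.94 in Con and at 3.36, 5.43 and 6.77 in Veh, and the groups overlapped (difference -1.50 ± 0.48, 0.0694). Igf1, the circulating growth factor, was at 11.54 ± 0.23 in Con and 11.65 ± 0.20 in Veh (SD, n = 9 each), a difference of 0.11 ± 0.14 (0.657). The growth hormone receptor gene Ghr differed by 0.01 ± 0.22 (0.983).

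Next to Cyp2b9, the largest called rises were those of 2 Cyp4a genes. Cyp4a10 was at 2.77, 4.04 and 7.11 (lowest, median, highest) in Con and at 4.66, 8 and 8.51 in Veh. Con 9 stood alone at 7.11 with the other Con mice at most 4.39, and with it the groups overlapped. The rise was 3.14 ± 0.54 (0.002), held in all 14 other settings. Cyp4a14 was at 1.93, 4.45 and 7.02 in Con and 5.02, 8.07 and 9.59 in Veh, with Con 9 and Con 3 inside the Veh range. It rose by 3.09 ± 0.61 (0.00674). The Con levels of both are weak signals. The difference for Cyp4a12b, the male-biased member of the family, was -1.16 ± 0.59 and did not pass (0.231). The pattern most like Cyp4a10 was that of Cyp2c38 (r = 0.84), Cyp2c39 (0.84), Gstp1 (-0.80), Cyp7b1 (-0.80) and the splicing gene Srrm1 (-0.79).

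Of the other fatty acid oxidation genes 3 rose, by smaller amounts. Of 14 tested peroxisomal genes 12 were higher (median 0.33) and 1 passed (7.14%, against 1.21% of all genes as higher). This was Ech1, a dienoyl-CoA isomerase, which went from 9.36, 10.10 and 10.52 in Con to 10.22, 10.63 and 11.01 in Veh, a rise of 0.61 ± 0.16 (0.0281). Of 17 mitochondrial genes 13 were higher (median 0.24) and 2 passed (11.8%), the isomerase Eci1 (0.56 ± 0.14, 0.0281) and the enoyl-CoA hydratase Echs1 (0.50 ± 0.14, 0.0454). The Ech1, Eci1 and Echs1 calls held in 23, 22 and 12 of 27 leave-one-out sets, and 0 of the 3 held with quantile normalization. The members are bright (median log2 9.71 and 9.37), in the range where genes at large leaned upward. The carnitine palmitoyltransferase gene Cpt1a, the entry step of mitochondrial oxidation, differed by 0.09 (0.813). Dbi, the acyl-CoA binding protein, rose by 0.88 ± 0.18 (0.00705), from 11.60, 11.81 and 12.31 in Con to 12.24, 12.82 and 13.01 in Veh. Retsat, which saturates retinol, rose by 0.87 ± 0.23 (0.0324).

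The respiratory chain list, the longest of the 51, had the most calls. It covers the complexes of the inner mitochondrial membrane that pass electrons to oxygen and the synthase that makes ATP. Of 94 listed genes 66 were on the array and 59 were tested. Of these 47 were higher in Veh (median 0.31) and 12 passed, all 12 as higher (20.3%, against 1.21% of all genes). The median log2 brightness of the members was 9.89, with 28 members at 10 and over and 20 from 8 to 10, where 8.01% and 3.98% of genes were called higher. With quantile normalization 46 of 59 were still higher, the median was 0.17, and 2 passed, Ndufa7 and Ndufb8. Taken as a mean over its members, the list was at 9.02 to 9.32 in the 9 Con mice (median 9.21) and at 9.24 to 9.57 in the 9 Veh mice (median 9.41).

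Complex I, the NADH dehydrogenase, held 9 of the 12 calls among 27 tested subunits, with a median of 0.32. Ndufb8, an accessory subunit, was at 9.54, 9.77 and 10.12 in Con and at 10, 10.43 and 10.98 in Veh. The ranges overlapped slightly, with Veh 9 lowest at 10. The rise of 0.73 ± 0.13 (0.00304) held in all 14 other settings and in 27 of 27 leave-one-out sets. Ndufa7 rose by 0.69 ± 0.15 (0.011), and the other 7 (Ndufa5, Ndufa9, Ndufb2, Ndufb5, Ndufb6, Ndufb11 and Ndufc1) by between 0.39 and 0.53. Not every subunit was higher. The catalytic core subunit gene Ndufs1 differed by -0.22 ± 0.14 (0.346) and Ndufa10 by -0.32 ± 0.20 (0.329).

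In complex II, succinate dehydrogenase, 1 of 4 subunits passed. Sdhb, the iron-sulfur subunit, was at 9.98, 10.41 and 10.64 in Con and at 10.67, 10.94 and 11.22 in Veh, so that all 9 Veh mice lay above all 9 Con mice. It rose by 0.59 ± 0.12 (0.00894) and lost the call with quantile normalization (0.35, adjusted p = 0.126). In complex III all 8 subunits tested were higher (median 0.41) and cytochrome c1, Cyc1, passed (0.45 ± 0.12, 0.0405). The second probe set of Cyc1 differed by 0.5 (0.109). In complex IV, cytochrome oxidase, 7 of 9 were higher (median 0.31) and 0 passed, 5 with an unadjusted p under 0.05. Of all genes 23% had such a p. Among 10 subunits of the ATP synthase 8 were higher and Atp5e, the epsilon subunit, passed. Atp5e was at 9.19, 9.56 and 10.11 in Con and at 10.25, 10.59 and 11 in Veh, again without overlap, a rise of 0.92 ± 0.22 (0.0218). Cycs, the mobile cytochrome c, differed by -0.44 ± 0.18 (0.138).

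A few genes showed no overlap between the groups. In 20 of 5200 genes (0.385%) the 9 Veh and 9 Con values did not overlap, 9 with Veh above (0.173%) and 11 with Veh below (0.212%). Of these, 17 passed the test. They were Arf5, Naxe, Cmbl, Atp5e, Sdhb, Apoc4, Asgr1 and Rps10 above and Nme1, Adi1, Dnajb13, Cbx6, Spcs1, Fam32a, Irak1, Myo6 and Lrwd1 below. The 3 that did not pass were Hsd3b5, the fatty acid elongase Elovl6 (1.69, adjusted p = 0.0558) and the histone methyltransferase gene Kmt5c (-1.16, 0.0808), the last 2 named after their values were seen. Second probe sets of Cbx6 (-0.38, 0.597) and Dnajb13 (-0.63, 0.361) did not pass, and that of Myo6 did (-0.88, 0.0292).

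Arf5, a small GTPase of Golgi traffic, had the smallest adjusted p of the 5200 genes. It was at 8.87, 9.02 and 9.28 in Con and at 9.38, 9.84 and 10.07 in Veh, a rise of 0.75 ± 0.11 (0.000699). Naxe, an epimerase that repairs damaged NADH, was at 8.75, 9.11 and 9.49 in Con and at 9.56, 10.02 and 10.14 in Veh. It rose by 0.85 ± 0.14 (0.00144), and its second probe set rose by 0.55 ± 0.11 (0.00872). The hydrolase gene Cmbl rose by 0.92 ± 0.18 (0.00608), from 9, 9.23 and 9.71 to 9.84, 10.09 and 11.03. For Naxe, Veh 1 at 10.04 and Veh 8 at 10.10 stood as high as Veh 2 at 10.01 and Veh 7 at 10.02.

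Nme1, a nucleoside diphosphate kinase, was at 6.10, 6.51 and 6.73 in Con and at 3.79, 4.63 and 5.83 in Veh. It fell by 1.74 ± 0.27 (0.00084), while its second probe set differed by -0.52 ± 0.25 (0.20). Adi1, an enzyme of methionine salvage, was at 7.09, 7.35 and 7.54 in Con and at 5.10, 5.77 and 7.02 in Veh, and fell by 1.37 ± 0.25 (0.00402). Spcs1, a subunit of the signal peptidase, fell by 1.04 ± 0.20 (0.00674), and Fam32a by 0.75 ± 0.14 (0.00608), with 2 further probe sets of Fam32a at 0.12 and -0.31 that did not pass. The thrombin receptor gene F2r fell by 1.25 ± 0.23 (0.00402), from 6.68, 7.06 and 7.66 to 5.08, 6.04 and 7. Its second probe set differed by -0.81 and did not pass (0.14). Of the 84 called genes of the naming rule, 42 held in 27 of 27 leave-one-out sets. In the other settings each was tested under, 10 held throughout, Cyp2b9, Cyp4a10, Naxe, Arf5, Ndufb8, Eng, Nars, F2r, Adi1 and Nme1.

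**Figure D4:**
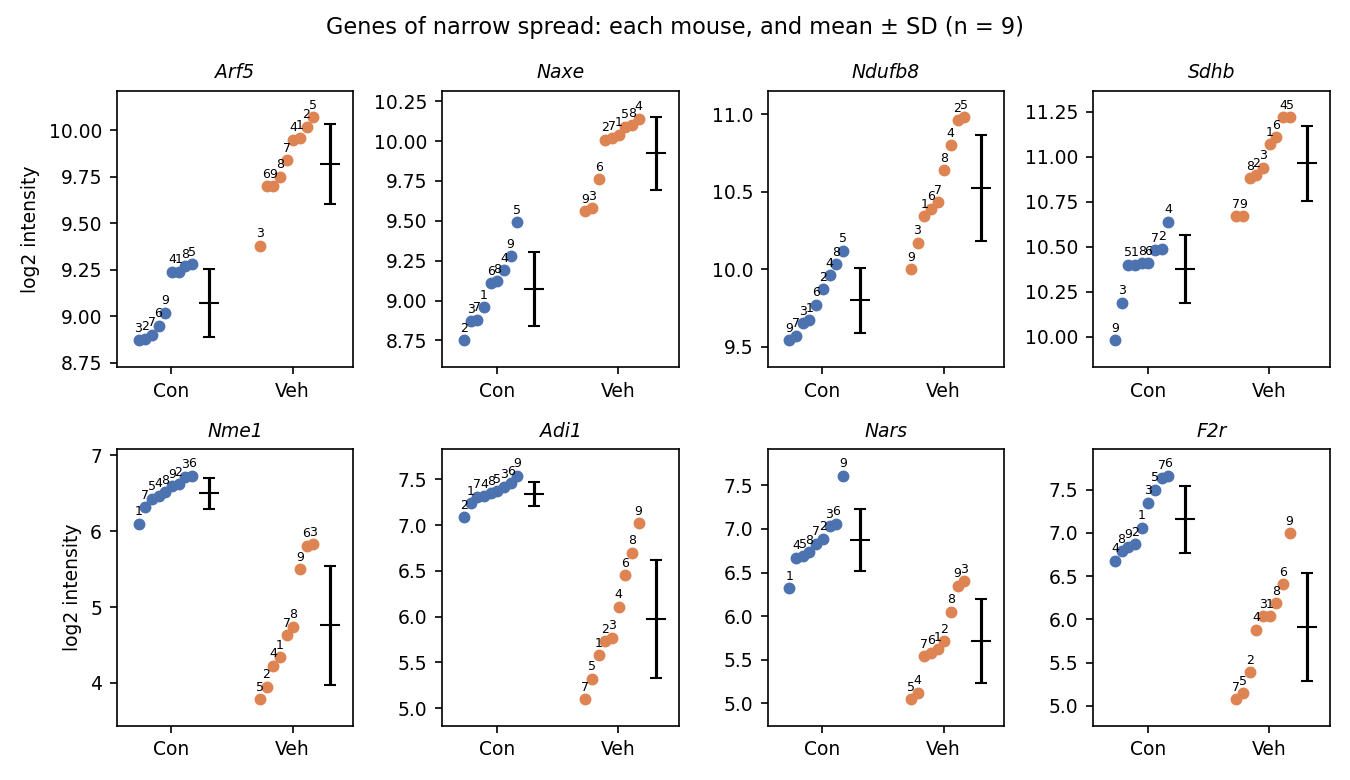
Log2 intensity of 8 genes, 1 point per mouse labelled with its number, in the 9 Con (blue) and 9 Veh (orange) livers, with mean and SD beside each group and a separate vertical scale for each gene. For Arf5, Naxe, Sdhb, Nme1 and Adi1 the lowest value of the higher group lies above the highest value of the lower group.

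Among 33 tested liver transcription factors and nuclear receptors 4 fell (12.1%, against 2.35% of all genes as lower). The difference was negative for 25 (median -0.28, against -0.18 over all genes), and 19 were lower relative to the median probe set. Hnf4a, a master regulator of hepatocyte genes, was at 7.17, 8.15 and 8.92 in Con and at 6.13, 7 and 7.58 in Veh. The groups overlapped, and the fall was 1.16 ± 0.29 (0.0281). Foxa1, a pioneer factor of liver enhancers, was at 5.16, 5.95 and 6.81 in Con and at 3.19, 4.60 and 6.01 in Veh, a fall of 1.29 ± 0.32 (0.0281). Its Veh mean of 4.69 is dim, so the size of its fall depends on weak signals. The bile acid receptor FXR, Nr1h4, fell by 0.88 ± 0.23 (0.0326) and the xenobiotic receptor PXR, Nr1i2, by 0.86 ± 0.23 (0.0353). None of the 4 passed with quantile normalization (changes of -1.02, -0.99, -0.78 and -0.57). Of the 33 genes 26 have a mean log2 intensity under 8, where genes at large leaned downward. The fatty acid receptor gene Ppara differed by 0.24 (0.559) and the CAR gene Nr1i3 by 0.40 (0.242).

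Of 48 tested splicing and mRNA export genes 40 had a negative difference (median -0.29), 29 were lower relative to the median probe set and 3 passed as lower (6.25%, against 2.35% of all genes), the hnRNP gene Hnrnpl, the export receptor Nxf1 and the paraspeckle protein Nono. Hnrnpl was at 4.76, 6.19 and 6.60 in Con and at 2.10, 4.18 and 5.73 in Veh, and fell by 1.83 ± 0.45 (0.0245). Nxf1 fell by 1.38 ± 0.35 (0.0281) and Nono by 0.62 ± 0.17 (0.0418). Of the 48 genes 42 have a mean log2 intensity under 8, where genes at large leaned downward, and with quantile normalization 32 of 48 were lower (median -0.14) and none of the 3 passed. Among 36 translation factors and tRNA synthetases 20 were lower and 2 passed (5.56%). Nars, the asparaginyl-tRNA synthetase, was at 6.32, 6.83 and 7.61 in Con and at 5.05, 5.62 and 6.40 in Veh, a fall of 1.16 ± 0.21 (0.00402). Eif2b1, a subunit of the exchange factor that recharges eIF2, fell by 0.93 ± 0.19 (0.00734). In nucleotide metabolism the mitochondrial adenylate kinase Ak4 fell (-1.23 ± 0.33, 0.0343) beside Nme1, and the purine nucleoside phosphorylase Pnp rose (0.66 ± 0.18, 0.0391). The second probe set of Ak4 differed by -0.78 (0.0812).

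Among the other lower genes with at least 5 in log2 intensity in both groups, Elovl2, which elongates polyunsaturated fatty acids, had one of the largest falls. It was at 8.17, 8.82 and 9.54 in Con and at 5.66, 6.86 and 8.87 in Veh, with an overlap, and fell by 1.71 ± 0.40 (0.0196). The organic anion transporter Slc22a30 fell by 1.35 ± 0.29 (0.0097), the oxysterol-binding relative Osbpl1a by 1.23 ± 0.29 (0.0211) and the chromatin remodelling ATPase Smarca2 by 1.36 ± 0.37 (0.0349). The second probe set of Osbpl1a differed by -0.42 (0.511). Skp1, an adaptor of ubiquitin ligases, fell by 1.17 ± 0.28 (0.0227).

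Of 33 tested cytoskeletal genes 21 were higher (median 0.11) and 4 passed, all as higher (12.1%, against 1.21% of all genes). Tmsb4x, which holds actin monomers, was at 7.36, 7.69 and 8.26 in Con and at 7.57, 8.90 and 10.12 in Veh, a rise of 1.13 ± 0.25 (0.013). Its relative Tmsb10 rose by 1.06 ± 0.29 (0.0357), the annexin partner S100a10 by 0.87 ± 0.24 (0.038) and the small LIM protein Crip1 by 1.28 ± 0.34 (0.0347), the last from a dim Con mean of 3.69. The second probe set of S100a10 differed by 0.46 (0.323). Tmsb4x, Tmsb10 and Crip1 passed with quantile normalization as well. Actb itself differed by -0.35 ± 0.46 (0.655).

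Plasma protein and lipoprotein genes gave small changes on bright probe sets. Of 20 tested genes of secreted plasma proteins 17 were higher (median 0.18), 2 passed as higher and 1 as lower, and of 22 apolipoprotein and lipoprotein genes 16 were higher (median 0.21) and 2 passed as higher. Over all genes 1.21% passed as higher and 2.35% as lower. In these lists 15 and 14 members have a mean log2 intensity of 10 and over, where 8.01% of genes were called higher. Apoc4, an apolipoprotein, was at 11.34, 11.74 and 11.94 in Con and at 11.94, 12.30 and 12.44 in Veh, with the nearest values of the groups equal at this rounding, a rise of 0.58 ± 0.12 (0.00793). Asgr1, a subunit of the asialoglycoprotein receptor of hepatocytes, was at 10.34, 10.60 and 10.79 in Con and at 10.99, 11.09 and 11.51 in Veh, and rose by 0.58 ± 0.12 (0.00734). Angiotensinogen, Agt, rose by 0.72 ± 0.21 (0.0424), the plasmin inhibitor Serpinf2 by 0.67 ± 0.16 (0.0183) and the paraoxonase Pon1 by 0.47 ± 0.13 (0.0421). The second probe set of Serpinf2 differed by -0.59 (0.196). Azgp1, a zinc-binding glycoprotein, fell by 0.66 ± 0.18 (0.0391). With quantile normalization Apoc4 (0.0191) and Azgp1 (0.0286) passed, and Agt (0.103), Serpinf2 (0.0942), Pon1 (0.258) and Asgr1 (0.0652) did not. Among 25 cytosolic ribosomal proteins 20 were higher (median 0.20) and 2 passed as higher (8%, against 1.21% of all genes), Rps10 (0.50 ± 0.13, 0.0343) and Rpl41 (0.49 ± 0.14, 0.0461). Neither passed with quantile normalization. Of the 25 members 17 have a mean log2 intensity of 10 and over, where 8.01% of genes were called higher. Rps10 varied little between mice, with Con values from 11.05 to 11.26 and Veh values from 11.37 to 12.05.

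Of 16 tested genes of MHC class I and the immunoproteasome 13 were higher (median 0.35) and 1 passed (6.25%, against 1.21% of all genes as higher). The mean over the list was 8.13 to 8.60 in Con (median 8.43) and 8.08 to 10.05 in Veh (median 8.47), with Veh 7 highest at 10.05 and Veh 2 next at 9.19. Psme1, the interferon-inducible proteasome activator, was at 8.33, 8.51 and 8.80 in Con and at 8.65, 9.23 and 10.24 in Veh, a rise of 0.73 ± 0.17 (0.0183). Among 9 MHC class II genes 7 were higher (median 0.37) and 0 passed, 4 with an unadjusted p under 0.05. Of all genes 23% had such a p. Cd74, the invariant chain, was at 7.32, 8.31 and 8.81 in Con and at 7.44, 8.99 and 11.05 in Veh, with Veh 7 highest and Veh 2 next at 10.18 (difference 0.92 ± 0.34, 0.109). Among 16 interferon-stimulated genes 12 were higher and 0 passed (3 at an unadjusted p under 0.05), and the mean over the list was 6.47 to 7.04 in Con (median 6.84) and 6.34 to 8.57 in Veh (median 6.53). Veh 7 at 8.57 and Veh 2 at 7.85 were highest, Veh 3 was at 7.07, and the other 6 Veh mice were at 6.34 to 6.71. Orm3, an acute phase glycoprotein, passed alone of 31 acute phase genes (3.23%, against 1.21% of all genes as higher). It rose by 1.47 ± 0.34 (0.019).

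Markers of the cell types a liver sample can hold changed little as lists. Of 9 hepatocyte markers Hnf4a passed as lower, and the mean of the list was 10.56 to 11.42 in Con and 10.49 to 11.09 in Veh. Albumin, Alb, was at 14.07 ± 0.38 in Con and 14.37 ± 0.40 in Veh (SD, n = 9 each; difference 0.30 ± 0.19, adjusted p = 0.347), a difference whose sign turned with quantile normalization (-0.01). Eng, the endoglin of endothelium, passed as higher, at 8.75, 8.98 and 9.40 in Con and 9.25, 9.74 and 9.90 in Veh (0.66 ± 0.13, 0.00619). The other 6 tested endothelial markers did not pass, and the mean of that list was 5.57 to 6.11 in Con and 5.62 to 6.18 in Veh. Ly6g of neutrophils passed as lower on dim signals (-1.13 ± 0.26, 0.0183), and the mean of that list was 5.01 to 6.62 in Con and 4.70 to 6.56 in Veh. Amylase, Amy1, passed as higher (0.63 ± 0.17, 0.0326), while the other 5 tested genes of exocrine pancreas did not, and that mean was 6.71 to 7.40 in Con and 6.47 to 7.19 in Veh. The shares called were 11.1% of hepatocyte, 14.3% of endothelial, 20% of neutrophil and 16.7% of pancreas markers, each a single gene of a short list. Over all genes 1.21% passed as higher and 2.35% as lower. No marker of macrophages (12 tested), T and NK cells (2), B cells (7), stellate cells (9), bile ducts (2), red cells (8), fat (3) or muscle (4) passed. Their part in the results above was not tested.

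Several metabolic and regulatory lists gave no call. Of 33 genes of gluconeogenesis, glycolysis and amino acid breakdown 0 passed (median 0.03), as did 0 of 11 urea cycle genes (-0.11), 0 of 26 genes induced by glucocorticoids (-0.25), 0 of 19 cell cycle genes (-0.08) and 0 of 11 immediate early genes (-0.14). At an unadjusted p under 0.05 these 5 lists held 9, 1, 3, 2 and 0 genes. Of all genes 23% had such a p. Of 22 clock and clock output genes 17 were lower (median -0.42) and 0 passed, 5 of them with an unadjusted p under 0.05, 1 higher and 4 lower. The 2 with the smallest p were the galectin gene Lgals9, with a difference of 0.39 (0.105), and the NAD salvage enzyme Nampt, with -0.83 (0.112).

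**Figure D5:**
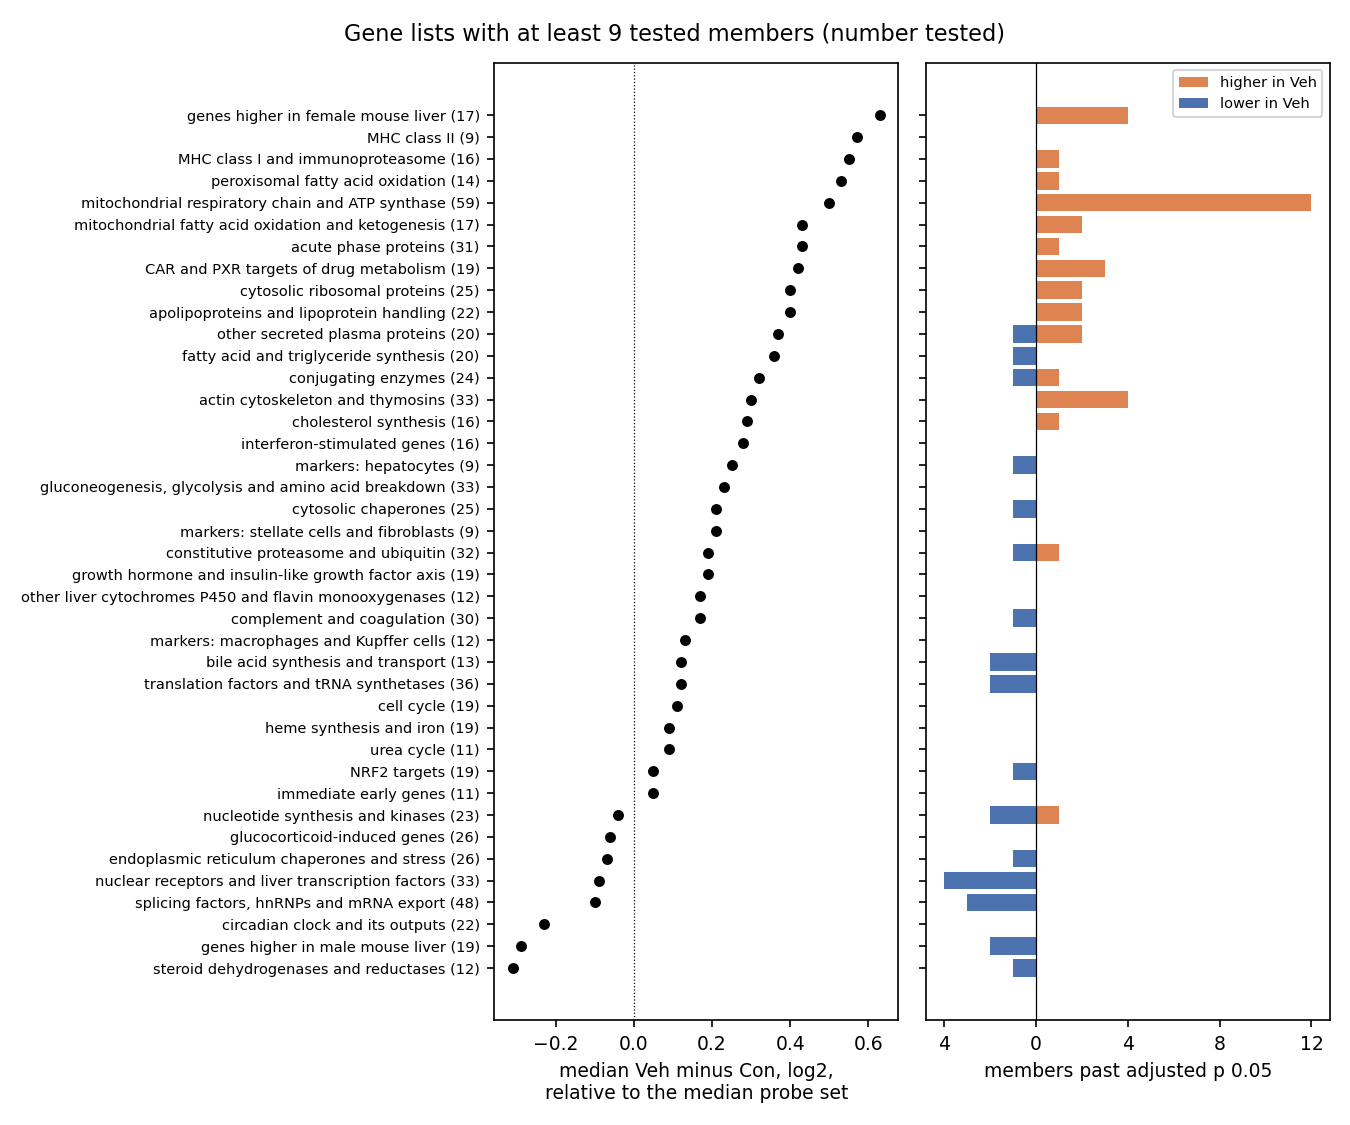
Left, the median difference Veh minus Con on the log2 scale of each gene list with at least 9 tested members, relative to the median probe set, with the number tested in parentheses; right, the number of members past the threshold, higher in Veh (orange) or lower (blue). The female-biased list is at the top at 0.63, the male-biased list is next to last at -0.29, and the respiratory chain has the most calls, 12. In the female-biased list Cyp2b9, Cyp4a10 and Cyp4a14 met the filter through the groups in which they were high. The place of that list describes the members that met the filter and cannot be read against the other lists.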

How the data were processed

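RNA of 27 mouse livers was measured on Affymetrix arrays, and per the labels it was extracted with Trizol and RNeasy columns and checked on a Bioanalyzer. The deposited table holds linear intensity values, 1 per probe set and array. The sources used here do not name the software that summarised the probes. A floor of 2.6 (10th percentile of the positive intensities) was applied before taking log2, with no further scaling. Probe sets above their array's median in at least 9 of 27 arrays were tested, and 66 control probe sets were left out. limma 3.58.1 (R 4.3.3) fitted the means of Con, Veh and Dex to the 27 arrays together (lmFit, eBayes with a mean trend, 24 residual degrees of freedom, two-sided). Adjusted p are Benjamini-Hochberg values over 6784 probe sets, threshold 0.05, given alone after a change and its standard error. Veh and Con alone, other scalings, floors, filters, covariates, array weights and blocks were alternatives. Single measures per array were compared by exact permutation over 48620 splits of 18 arrays.

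Symbols came from the probe annotation. With control probe sets counted, 10855 probe sets had 1 symbol and 396 several. With controls left out, 1193 had none. Of the probe sets with 1 symbol, 10839 matched the reference gene table. The tested probe set with the highest mean over the 18 arrays stood for a gene. Named genes were the 15 largest rises and falls past the threshold with both means at least 5 (5 and 5 among dimmer genes), list members past the threshold or, in lists without any, up to 2 by p, called genes without overlap (up to 15), sex chromosome genes, Actb, Gapdh, Alb and the 5 patterns most like Cyp4a10, Cyp2b9 and Cyp7b1. Other list members are named as background. The 51 lists (1396 genes, 817 tested) and the rules were chosen with earlier results of these data known. Nothing beyond the titles says that the mice of a group were treated separately, so p-values measure the spread between these livers. Arrays have no read depth, so their number limits the precision. The fit was tested on simulated data.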

Additional observations from a re-analysis of the deposited data

Results flagged for a closer look

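In 11 of 266 groups of 9 arrays (4.14%), a single mouse stood apart from the other 8 by more than the 95% critical value of Dixon's ratio, a rate near the 1 in 20 that chance gives. All values are log2 intensities. Cyp4a10 was at 7.11 in Con 9, with the other Con mice at 2.77 to 4.39, and Hsd3b6 was at 5.28 in the same mouse (others 6.71 to 7.53). Con 3 had Rps10 at 11.05 (others 11.16 to 11.26) and Etfbkmt at 8.24 (others 6.28 to 7.22). Ndufa9 was at 8.85 in Con 8 (others 9.24 to 9.59), and Cd4 at 3.41 in Con 6 (others 5.08 to 5.85). Among the Veh mice, Dbi was at 12.24 in Veh 9 (others 12.65 to 13.01), Amy1 at 9.80 in Veh 7 (others 10.25 to 10.66), Myh4 at 3.67 in Veh 7 (others 4.83 to 5.99), Tff3 at 7.41 in Veh 8 (others 2.77 to 4.54) and Dnajb13 at 2.72 in Veh 6 (others 5 to 5.94).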

How the results depend on the processing

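None of the 262 calls changed sign in any setting. The calls numbered 86 with quantile normalization (44 higher, 42 lower), 183 higher and 46 lower with array median centring, 116 with no filter (43, 73), 656 with the 18 arrays alone (191, 465), 1158 with array weights (280, 878), 51 higher without the mean trend, 33 with the beta-actin ratio (15, 18), 75 with the Gapdh ratio (35, 40) and 21 with the array median (10, 11). Leaving out 1 array gave 85 to 586 (35 to 135 higher, 50 to 451 lower). The cause of these moves was not tested, and the arrays alone limit the precision. Of the 84 called genes of the naming rule 35 held with quantile normalization, 67 with centring and 19 with the beta-actin ratio. Same-numbered Con and Veh arrays did not deviate together (correlations -0.195 to 0.079, 0 of 9 over 0.1). That cannot show whether the numbers pair the mice, and the main fit did not pair them. With the replicate block 311 probe sets were called, and with the numbers 1-3, 4-6 and 7-9 as a factor 322.

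Uncalled differences that changed sign were Alb (-0.01, quantile), Il2rb (0.12 quantile, 0.11 centring, 0.29 beta-actin ratio, 0.24 Gapdh ratio, 0.53 array median), Cd4 (0.00, beta-actin ratio), and Mrc1 (0.03) and Cftr (0.14) with the array median. Without 1 array Il2rb ranged from -0.39 to 0.14 (above 0 without Con 8, 0.06, or Veh 5), Cd4 from -0.58 to 0.05 (without Veh 1) and Myh4 from -0.07 (without Con 2) to 0.34. The Veh minus Con difference of the beta-actin ratio was then 0.238 to 0.369, of the Gapdh ratio 0.0849 to 0.181, of the median intensity -5.62 to -3.99, of the percentage at the floor 1.24 to 2.34 and of the trimmed mean -0.13 to 0.0672. The last was above 0 when Con 1, 4 or 7 or Veh 1 or 7 was dropped (0.0429, 0.0328, 0.0221, 0.0132 and 0.0672).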
